A study of Mus musculus with 12 samples.

Results

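The liver expresses a set of nuclear receptors that read out the levels of bile acids, oxysterols, fatty acids and foreign compounds. Of the 24062 genes in the count tables, 10 were followed here, chosen by name: Nr1i2 (PXR), Nr1i3 (CAR), Nr1h2 (LXR-beta), Nr1h3 (LXR-alpha), Nr1h4 (FXR), Nr0b2 (SHP), Nr5a2 (LRH-1), Hnf4a (HNF4-alpha), Ppara (PPAR-alpha) and Rxra (RXR-alpha). All 10 were among the 12481 genes with enough reads to be tested. The samples were livers of female C57BL/6J mice that arrived when 6 weeks old and were acclimated for 2 weeks. Both groups ate the control diet (15% of kcal as fat, 65% as carbohydrate and 20% as protein) for 3 days, and were then randomized to stay on it or to eat the same diet with BIBB-515 at 55 mg/kg body weight for 10 days. BIBB-515 is an inhibitor of lanosterol synthase, which closes the sterol ring in cholesterol synthesis, and no engineered allele is described for the mice. RNA-seq libraries of 6 control mice (numbers 1 to 6) and 6 BIBB-515 mice (numbers 6 to 11) were analysed, of 11 mice per group in the study. Each library held 22764819 to 31058370 gene reads, and the common biological coefficient of variation was 0.143.

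Nuclear receptors are transcription factors, and most are controlled by small lipophilic ligands. CAR, PXR, both LXRs, FXR and PPAR-alpha bind DNA as partners of an RXR, whereas HNF4-alpha binds as a homodimer and LRH-1 as a monomer. SHP has no DNA-binding domain and represses other receptors, LRH-1 and HNF4-alpha among them. In hepatocytes CAR and PXR drive the genes of drug metabolism, FXR with SHP and LRH-1 controls bile acid synthesis, the LXRs respond to oxysterols, and PPAR-alpha drives fatty acid oxidation. The activity of most of these proteins, though not all, is set largely by ligand, and for CAR by entry into the nucleus. Neither ligand nor nuclear entry is measured by RNA-seq. The comparison asked whether the diet with the inhibitor altered the transcripts of the receptors themselves, and how their known target genes stood beside them.

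Levels between genes were compared as RPKM, the reads of a gene divided by its summed exon length and by the library size. In control mice Hnf4a (145 ± 23.3 RPKM, SD, n = 6) and Nr1i3 (128 ± 22.5) were the highest, in an order that rests on how Nr1i3 is counted, followed by Rxra at 81.8 ± 14.8. Nr1h4 (62.1 ± 8.88), Nr1h3 (61.1 ± 8.28), Nr1i2 (44.0 ± 7.55) and Ppara (43.9 ± 9.11) formed the middle of the order. Nr1h2 (23.8 ± 1.59), Nr5a2 (10.9 ± 2.04) and Nr0b2 (10.7 ± 3.13) were the lowest. Averaged over both diets, the 10 receptors lay between the percentiles 66.8 (Nr5a2) and 95.7 (Hnf4a) of all tested genes on the RPKM scale.

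**Figure D1:**
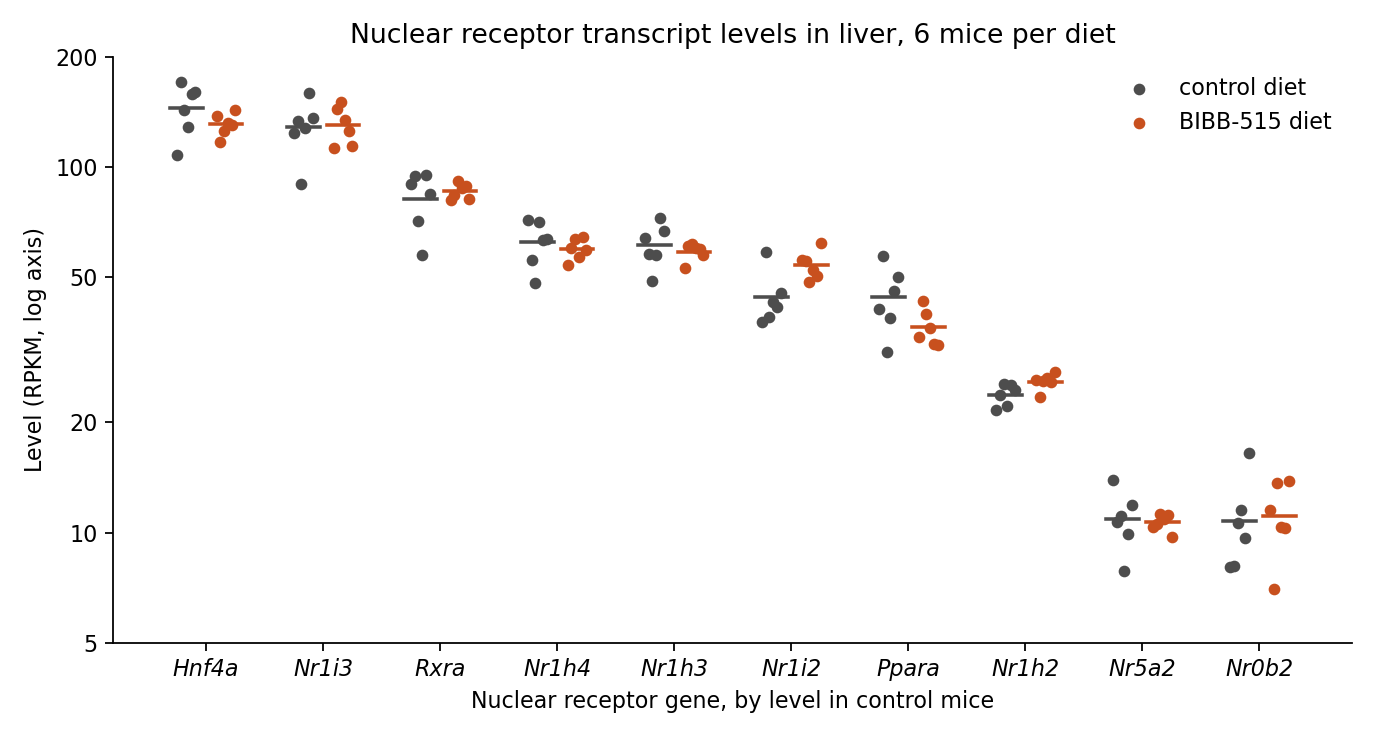
RPKM level (log axis) of each receptor gene in each mouse, with genes ordered by their control mean; points are mice (grey control, orange BIBB-515, 6 each) and lines are diet means. Hnf4a and Nr1i3 lie at the top and Nr5a2 and Nr0b2 at the bottom in both diets, and the grey and orange points of every gene overlap.

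The same order held with BIBB-515 except for its last places, where Nr0b2 (11.1 ± 2.53 RPKM) lay beside Nr5a2 (10.7 ± 0.583). Hnf4a (131 ± 9.13) and Nr1i3 (129.9 ± 15.6) were then nearly level, and Hnf4a was above Nr1i3 in 3 of 6 mice, against 4 of 6 control mice. Neighbours in the order were compared within mice by a two-sided exact sign-flip test, whose smallest p with 6 mice is 0.03125. No neighbour pair reached an adjusted p of 0.05 over the 9 pairs of a diet, the lowest being 0.0938 in control and 0.0562 in BIBB-515 mice. With the authors' tables of primary alignments, 6 of the 9 pairs of BIBB-515 mice were at an adjusted p of 0.0469 in this exact test. Pairs with the same sign in 6 of 6 mice all had the smallest p, so their adjusted p depended only on the number of such pairs. The pass at 0.0469 came with Hnf4a and Nr1i3 joining them, while Rxra over Nr1h4 stayed at a log2 difference of 0.53. These adjusted p values therefore do not grade the pairs. Nr1i3 exceeded Rxra, and Ppara exceeded Nr1h2, in 6 of 6 mice of each diet. Nr1h4 and Nr1h3 differed by 0.02 on the log2 RPKM scale in both diets (exact sign-flip test, adjusted p = 0.875 in control and 0.603 in BIBB-515 mice). Nr1i2 and Ppara were level in control mice (log2 difference 0.01), and Nr1i2 was 1.48-fold above Ppara in BIBB-515 mice, in 6 of 6 mice. The exact sign-flip test gave an adjusted p of 0.875 in control and 0.0562 in BIBB-515 mice. Whether the ratio of this pair differed between the diets was not tested. The place of Nr1i3 rests on how reads are counted. Its last exon (chr1:171218589-171218845 of mm10, 257 bases or 18.2% of its exon length) lies within exons of Tomm40l on the opposite strand, and reads there were left out of the gene counts although the RPKM divides by all 1414 bases. Over the 1157 bases that only Nr1i3 has, its level was 157 ± 27.5 RPKM in control and 159 ± 19.1 in BIBB-515 mice, above Hnf4a in 4 of 6 mice of each diet (exact sign-flip test, adjusted p = 0.703 and 0.188). In the authors' tables that count such reads for each gene, Nr1i3 held 32.9% more reads, while the other 9 receptors held at most 0.105% more. By those tables Nr1i3 was above Hnf4a, by 0.23 in control and 0.40 in BIBB-515 mice on the log2 RPKM scale, and without strand the extra reads cannot be assigned to either gene.

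None of the 10 receptors passed an FDR of 0.05 between the diets in edgeR's quasi-likelihood test, where 13.7% of all tested genes did (7.18% higher and 6.48% lower with BIBB-515). At an unadjusted p under 0.05 the count was 2 of 10 (Nr1i2 and Ppara), against 29.7% of tested genes. DESeq2 called 1 of the 10 (Nr1i2), against 18% of tested genes, and limma-voom called 0. The log2 fold changes were positive for 5 receptors and negative for 5, with a median of −0.01, the same as over all tested genes, and the median absolute value was 0.06 against 0.14. For each of the 10 the 95% interval of the fold lay within 1.5-fold in either direction, and for 6 of them within 1.25-fold. The mice of the diets overlapped for all 10 receptors, whereas 7.07% of tested genes had no overlap (4.35% higher and 2.72% lower with BIBB-515). In whole liver, fewer cells of a type and less RNA per cell cannot be told apart. No receptor stood at 0, and the lowest, Nr0b2, had 231 to 457 reads per mouse.

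**Figure D2:**
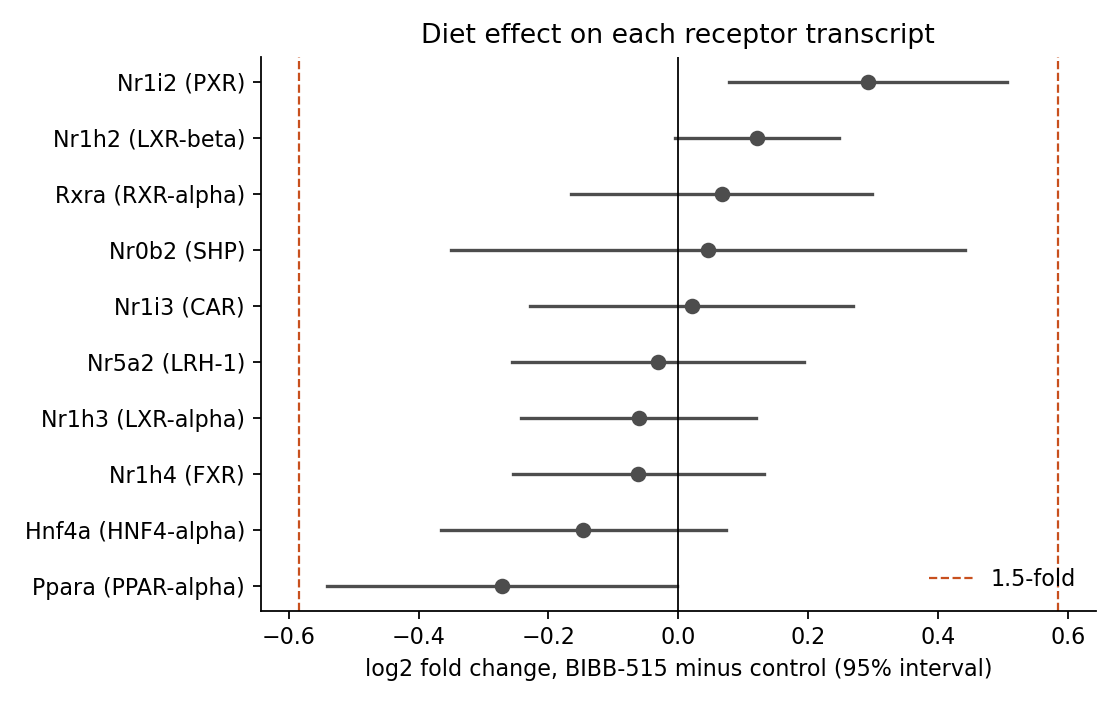
Log2 fold change of each receptor, BIBB-515 minus control (points), with a 95% interval derived from the edgeR test (bars) and 1.5-fold marked by dashed lines; 6 mice per diet. Nr1i2 (0.29) lies at the top and Ppara (−0.27) at the bottom, and all 10 bars stay between the dashed lines.

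PXR, encoded by Nr1i2 (chr16:38248349-38294824, minus strand of mm10), binds a wide range of drugs and steroids and induces drug-metabolizing enzymes. Nr1i2 ranged from 95.01 to 148 CPM, counts scaled to the library size after TMM, in control mice (median 106) and from 122 to 156 CPM in BIBB-515 mice (median 135). The groups overlapped through 1 control mouse, number 2, at 148 CPM, since the next highest control mouse was at 114 CPM and 6 of 6 BIBB-515 mice were above the control mean. The means were 111 ± 19.1 and 136 ± 12.1 CPM (SD, n = 6 each), a log2 fold change of 0.29 (SE 0.10, edgeR FDR = 0.0658) or 1.22-fold (95% interval 1.06 to 1.42). A two-sided exact permutation test of diet over all labelings of the mice gave an unadjusted p of 0.0216, where the smallest possible is 0.00216. The call of Nr1i2 turned on the tool and on that mouse: the FDR was 0.0356 with DESeq2, and 0.00411 in edgeR without control mouse 2, with a log2 fold change of 0.39. The difference was spread along the transcript, with all 9 exons higher in BIBB-515 mice, by 0.16 to 0.35 on the log2 scale.

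CAR, encoded by Nr1i3 (chr1:171213970-171218845, plus strand), is the receptor through which phenobarbital-like compounds induce Cyp2b genes, and it is held in the cytosol until released. Nr1i3 ranged from 127 to 225 CPM in control mice (median 184) and from 159 to 213 CPM in BIBB-515 mice (median 183). All 6 BIBB-515 mice lay inside the control range. The log2 fold change was 0.02 (SE 0.12, edgeR FDR = 0.929), with a 95% interval from 0.854-fold to 1.21-fold.

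Beside these small differences, the target genes of CAR and PXR were far apart between the diets. Of 21 tested genes in a list of CAR and PXR targets, 17 rose (edgeR, FDR of 0.05), against 7.18% of all tested genes, and the other 4 did not pass. Like the lists below, this list was chosen with earlier results of these data known. The shares called are thus descriptions and not independent support. The median log2 fold change of the list was 1.65, and 17 genes had no overlap between diets, against 4.35% of tested genes higher without overlap. The summed level of the list was 6748 to 8324 CPM in control and 28049 to 37901 CPM in BIBB-515 mice. Cyp3a11, a major bile acid and drug hydroxylase and the classic PXR target, rose from 1537 ± 166 to 14544 ± 1897 CPM (log2 fold change 3.24, SE 0.12, edgeR FDR = 2.31e-10). Cyp2b10, the classic CAR target, rose from 27.2 ± 23.3 to 430.0 ± 89.5 CPM (log2 fold change 3.98, SE 0.47, edgeR FDR = 7.66e-05). Cyp2c55, a cytochrome P450 of the same inducible group, rose by 5.98, the carboxylesterase Ces2a by 3.53 and the retinal dehydrogenase Aldh1a1 by 2.25 on the log2 scale. The cytochrome P450 and glutathione transferase genes of the list have close paralogs, among which reads can be split or dropped.

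The proteins that hold CAR in the cytosol or signal to it are phosphatases, chaperones and the EGF receptor. In this list of 7 genes, 3 rose and 2 fell (edgeR, FDR of 0.05), against 7.18% and 6.48% of all tested genes. Egfr, whose signal keeps CAR phosphorylated and inactive, fell from 239.7 ± 54.8 to 87.6 ± 11.9 CPM (log2 fold change −1.45, SE 0.14, edgeR FDR = 1.13e-05), and its highest BIBB-515 mouse (108 CPM) was below its lowest control mouse (172 CPM). Ppp2r1a, a scaffold subunit of protein phosphatase 2A, rose by 0.26 on the log2 scale (edgeR FDR = 0.0128). The chaperone genes moved apart, Hsp90ab1 rising by 0.26 (edgeR FDR = 0.0430) and Hsp90aa1 falling by 0.36 (edgeR FDR = 0.0347). The last gene called, Ppp1r16a, a phosphatase regulatory subunit that is outside the naming rule and was added after its values were seen, had a log2 fold change of 0.24 at an FDR of 0.0493. The count of 5 called was 4 without control mouse 5 or BIBB-515 mouse 6, 2 or 3 without any other single mouse, and 3 with no filter on low counts. The genes called over the whole table moved as well, from 1705 with all mice to between 1199 and 1865 without single mice.

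**Figure D3:**
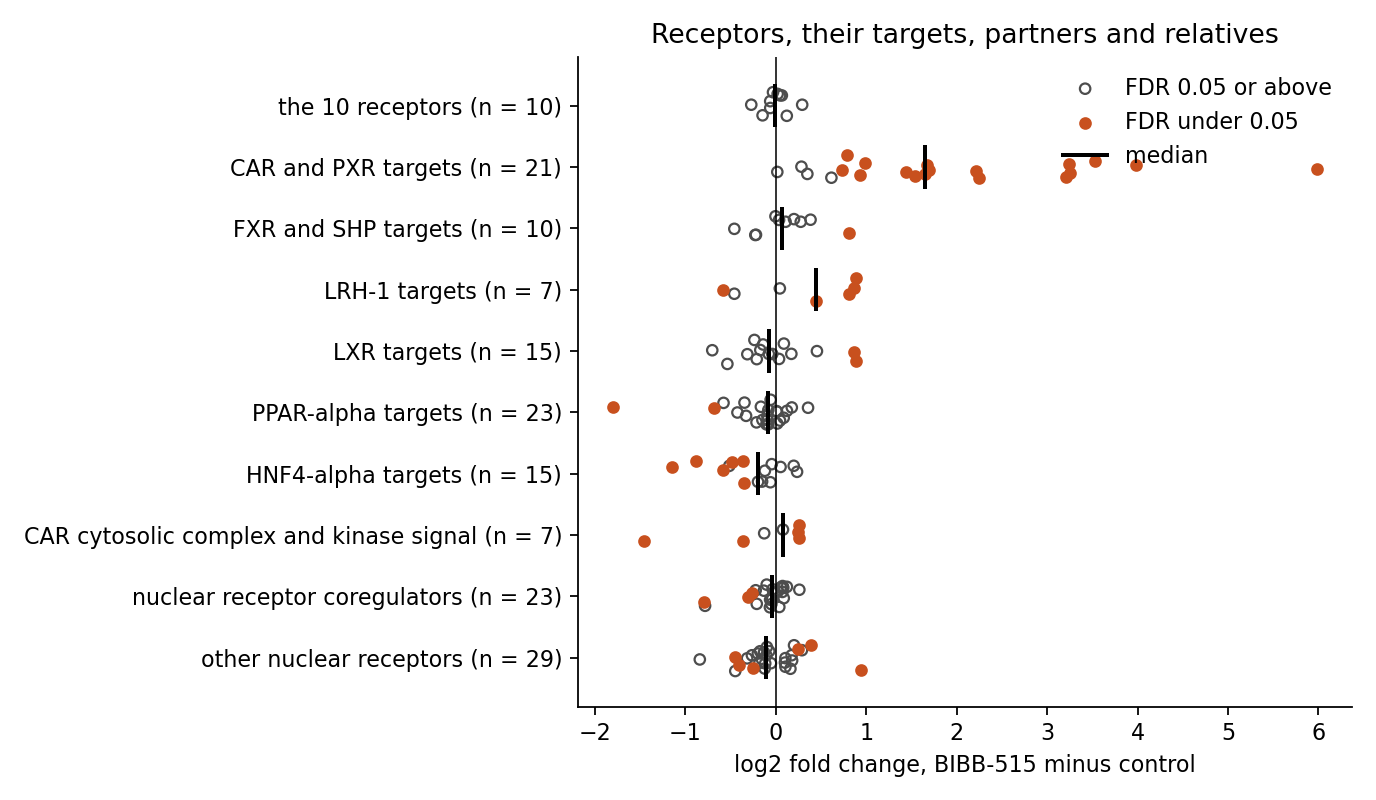
Log2 fold change, BIBB-515 minus control, of the 10 receptors (top) and of the tested genes of 9 lists of their targets, partners and relatives; filled points passed an FDR of 0.05, open points did not, and bars are list medians. The receptors lie between −0.27 and 0.29, and the filled points of the CAR and PXR targets extend to 5.98.

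The promoters of Nr1i2 and Cyp3a11, the receptor and the target with the contrast just given, are shown as RefSeq has them for GRCm38.p6, 250 bases before and 50 bases from the transcript start, 5′ to 3′ on the gene's strand. Capitals mark matches to the receptor half-site AGGTCA, which most RXR partners bind as a repeat, or to the HNF4 element CAAAGTCCA, searched on both strands. The Nr1i2 window is chr16:38294775-38295074 (minus strand) and the Cyp3a11 window chr5:145879805-145880104 (minus strand).
Nr1i2: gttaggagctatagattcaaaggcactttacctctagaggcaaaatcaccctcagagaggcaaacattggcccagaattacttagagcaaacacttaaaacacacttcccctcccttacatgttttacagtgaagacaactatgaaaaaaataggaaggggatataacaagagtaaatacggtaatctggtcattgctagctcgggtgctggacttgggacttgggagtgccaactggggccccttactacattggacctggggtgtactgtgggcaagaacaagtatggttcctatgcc
Cyp3a11: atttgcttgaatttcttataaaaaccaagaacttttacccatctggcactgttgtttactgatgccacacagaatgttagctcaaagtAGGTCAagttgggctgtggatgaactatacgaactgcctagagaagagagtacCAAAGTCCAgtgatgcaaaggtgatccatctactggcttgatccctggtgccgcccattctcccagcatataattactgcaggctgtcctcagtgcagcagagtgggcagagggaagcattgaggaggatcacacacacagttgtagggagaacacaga
The Cyp3a11 window held a half-site whose first base is at −162 from the start and an HNF4 element at −109, whereas neither word was in the Nr1i2 window. The windows of Cyp2b10 and of Abcg5 and Abcg8, targets that also rose, were searched too and held neither word (not shown). RefSeq promoters matched all 10 receptors, 14 windows in all, since 4 receptors have more than 1 start. The half-site was in 3 of the 14 windows (Nr1h4, Nr5a2 and Rxra), against 16.3% of all 32851 promoters. For Rxra it was in the second window, at exon 2, which held 1 read on average, and the Nr1h4 window lies at exon 3. Whether these starts were used in these livers was not tested. None of the 14 held the HNF4 element (0.475% of all promoters), the LRH-1 word TCAAGGNCA (1.62%), or a repeat of the half-site as AGGTCANTGACCT (0.00913%), AGGTCANAGGTCA (0.0396%) or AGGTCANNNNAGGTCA (0.0152%). The repeats contain the half-site and are counted under both.

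Among the bile acid receptors, FXR senses bile acids, SHP is the repressor that it induces, and LRH-1 activates the genes of bile acid synthesis that SHP represses. Nr1h4 (chr10:89454234-89533622, minus strand) ranged from 113 to 167 CPM in control mice (median 148) and from 126 to 150.03 CPM in BIBB-515 mice (median 139), all 6 inside the control range. Its log2 fold change was −0.06 (SE 0.09, edgeR FDR = 0.694). Nr0b2 (chr4:133553390-133556536, plus strand) ranged from 9.02 to 18.5 CPM (median 11.3) in control and from 7.82 to 15.4 CPM (median 12.2) in BIBB-515 mice. The groups overlapped nearly fully, and the log2 fold change was 0.05 (SE 0.19, edgeR FDR = 0.898). Nr0b2 was the most variable receptor in control mice (coefficient of variation 29.1%), so its 95% interval, 0.785-fold to 1.36-fold, was among the widest. Nr5a2 (chr1:136843584-136960448, minus strand) ranged from 30.2 to 53.8 CPM (median 42.0) in control and from 37.4 to 43.4 CPM (median 41.4) in BIBB-515 mice. All 6 BIBB-515 mice lay inside the control range, with a log2 fold change of −0.03 (SE 0.11, edgeR FDR = 0.879).

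Of 10 tested FXR and SHP targets, 1 passed the FDR of 0.05 (edgeR), a share of 10% that is near the 13.7% of all tested genes, and the list median was 0.07 on the log2 scale. DESeq2 called 3, against 18% of all tested genes, and edgeR called 3 without control mouse 2 and 2 without control mouse 1 or 5. The gene that rose was Cyp8b1, the sterol 12-alpha-hydroxylase that sets the share of cholic acid. It rose from 260.3 ± 33.7 to 458 ± 57.4 CPM (log2 fold change 0.81, SE 0.10, edgeR FDR = 0.000156), with no overlap between 199 to 291 CPM in control and 383 to 550.0 CPM in BIBB-515 mice. Cyp7a1, the rate-limiting enzyme of bile acid synthesis, was at 177 ± 89.0 and 129 ± 46.9 CPM, and this difference did not pass (log2 fold change −0.46, SE 0.32, edgeR FDR = 0.363). Abcb11, the bile salt export pump that FXR induces, was at 579.8 ± 78.6 and 625 ± 26.9 CPM (log2 fold change 0.11, edgeR FDR = 0.442). Of 7 tested LRH-1 targets 4 rose and 1 fell (edgeR), against 7.18% and 6.48% of all tested genes, with a median of 0.44, and the count of 5 was 3 without control mouse 4 or 6 or BIBB-515 mouse 7, 9 or 10. Those that rose were Cyp8b1, the sterol half-transporter genes Abcg5 and Abcg8, and Gnmt, the glycine N-methyltransferase, which lies outside the naming rule and was added after its values were seen (log2 fold change 0.44, edgeR FDR = 0.0403).

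The windows of Nr5a2 (chr1:136960399-136960698, minus strand) and Cyp8b1 (chr9:121916256-121916555, minus strand) are shown in the same way, since LRH-1 is a known regulator of Cyp8b1, the bile acid gene that passed the test.
Nr5a2: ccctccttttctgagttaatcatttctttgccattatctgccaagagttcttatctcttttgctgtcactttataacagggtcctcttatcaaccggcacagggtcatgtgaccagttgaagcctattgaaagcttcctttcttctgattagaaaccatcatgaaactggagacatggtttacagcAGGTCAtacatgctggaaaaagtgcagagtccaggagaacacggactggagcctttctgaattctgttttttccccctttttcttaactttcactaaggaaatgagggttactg
Cyp8b1: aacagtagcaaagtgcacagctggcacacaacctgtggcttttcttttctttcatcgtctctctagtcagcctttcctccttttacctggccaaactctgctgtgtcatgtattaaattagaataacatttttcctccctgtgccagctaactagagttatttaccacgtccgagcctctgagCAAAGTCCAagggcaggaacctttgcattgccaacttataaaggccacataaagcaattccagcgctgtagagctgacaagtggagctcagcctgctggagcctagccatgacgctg
The half-site of Nr5a2 begins at −64 and the HNF4 element of Cyp8b1 at −67 from the start. The LRH-1 word TCAAGGNCA was not in the Cyp8b1 window, and the second RefSeq window of Nr5a2, not shown, held none of the words searched. These are matches of letters, and binding was not measured.

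The LXRs are oxysterol receptors that induce sterol efflux and fatty acid synthesis, and an epoxycholesterol made when lanosterol synthase is partly blocked is a known LXR ligand. LXR-alpha, from Nr1h3 (chr2:91184061-91195116, minus strand), is the more liver-restricted form, and LXR-beta, from Nr1h2 (chr7:44549616-44553965, minus strand), is widely expressed. Nr1h3 ranged from 99.4 to 147 CPM (median 124) in control and from 107 to 125 CPM (median 121) in BIBB-515 mice, all 6 inside the control range (log2 fold change −0.06, SE 0.08, edgeR FDR = 0.675). Nr1h2 ranged from 43.6 to 51.4 CPM (median 48.7) in control and from 47.4 to 55.5 CPM (median 52.7) in BIBB-515 mice. In 5 of 6 BIBB-515 mice Nr1h2 was above every control mouse, yet the size was small, a log2 fold change of 0.12 (SE 0.06, edgeR FDR = 0.182, exact permutation p = 0.0368 unadjusted). All 10 exons of Nr1h2 were higher in BIBB-515 mice, by 0.03 to 0.34 on the log2 scale.

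Of 15 LXR targets, 2 passed in edgeR, a share of 13.3% beside 13.7% of all tested genes, with a list median of −0.08. DESeq2 called 5, against 18% of all tested genes, and edgeR called 4 without control mouse 4. Both genes that rose are also in the LRH-1 list. Abcg5 rose from 135 ± 21.5 to 248.7 ± 29.4 CPM (log2 fold change 0.88, SE 0.11, edgeR FDR = 0.000102), and Abcg8 from 177 ± 31.3 to 322 ± 32.4 CPM (log2 fold change 0.86, SE 0.11, edgeR FDR = 0.000235). They encode the paired subunits of the transporter that moves cholesterol into bile. Abca1, the cholesterol efflux transporter and another classic LXR target, was at 189 ± 16.3 and 163 ± 15.2 CPM (log2 fold change −0.21, edgeR FDR = 0.0821). Srebf1, the lipogenic factor that LXR induces, was at 329 ± 81.5 and 293 ± 55.1 CPM (log2 fold change −0.17, edgeR FDR = 0.507).

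PPAR-alpha, from Ppara (chr15:85735564-85806851, plus strand), is the fatty acid receptor of the fasting liver. Ppara ranged from 235 to 429.5 CPM in control mice (median 326) and from 244 to 324 CPM in BIBB-515 mice (median 265). All 6 BIBB-515 mice were below the control mean, but inside the control range. The means were 331 ± 68.5 and 274 ± 31.4 CPM, a log2 fold change of −0.27 (SE 0.13, edgeR FDR = 0.164), and the exact permutation p was 0.106. Without control mouse 3 the FDR was 0.0430 with a log2 fold change of −0.34. Of 23 PPAR-alpha targets, 2 fell (edgeR), against 6.48% of all tested genes, the other 21 did not pass, and the median was −0.09. Fgf21, a fasting hormone, fell from 11.5 ± 4.83 to 3.28 ± 0.875 CPM (log2 fold change −1.80, SE 0.26, edgeR FDR = 0.000508). Fabp1, the liver fatty acid binding protein, fell by 0.68 on the log2 scale (edgeR FDR = 0.0442). This count was 4 without control mouse 3, 1 without control mouse 1, 4, 5 or 6 or BIBB-515 mouse 6, 8, 9, 10 or 11, and 1 with limma-voom. Neither the omega-hydroxylase gene Cyp4a14 (1095 ± 485 and 872 ± 184 CPM, edgeR FDR = 0.438) nor Pdk4, the kinase that shuts pyruvate oxidation (21.4 ± 7.40 and 15.9 ± 6.27 CPM, edgeR FDR = 0.287), passed.

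HNF4-alpha, from Hnf4a (chr2:163547188-163572907, plus strand), maintains hepatocyte identity. Hnf4a ranged from 469 to 742.5 CPM in control mice (median 656) and from 509 to 622 CPM in BIBB-515 mice (median 570.4). All 6 BIBB-515 mice were below the control mean and inside the control range, with a log2 fold change of −0.15 (SE 0.10, edgeR FDR = 0.368). Of 15 HNF4-alpha targets, 6 fell (edgeR), against 6.48% of all tested genes, the other 9 did not pass, and the list median was −0.20. The count was 6 without any single mouse. F11, the gene of coagulation factor XI, fell from 96.4 ± 12.5 to 64.1 ± 5.48 CPM (log2 fold change −0.59, SE 0.09, edgeR FDR = 0.000615). The lipoprotein gene Apoa4 fell by 1.15 (edgeR FDR = 0.00161), and the coagulation genes F7 and F9 fell by 0.35 and 0.36 on the log2 scale (edgeR FDR = 0.00264 and 0.00331). Apoc3, another apolipoprotein gene, was at 2738 ± 338 and 2390 ± 253 CPM (log2 fold change −0.20, edgeR FDR = 0.195). Of 7 tested hepatocyte markers, 5 fell as well, against 6.48% of all tested genes (Ahsg, Ttr, Serpina1c, Alb and Fgb, of which Ttr is also in the HNF4-alpha list and Serpina1c has near-identical paralogs). Their summed level was 150423 to 174982 CPM in control and 114612 to 128733 CPM in BIBB-515 mice, and the 20 most abundant genes took 27.7% to 29.8% of reads in control and 23.6% to 25.2% in BIBB-515 mice. The part of these shifts in the result for HNF4-alpha targets was not tested.

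RXR-alpha, from Rxra (chr2:27677201-27763319, plus strand), is the shared partner of CAR, PXR, the LXRs, FXR and PPAR-alpha. Rxra ranged from 314 to 517 CPM in control mice (median 475) and from 444 to 500.4 CPM in BIBB-515 mice (median 468). All 6 BIBB-515 mice lay inside the control range, with a log2 fold change of 0.07 (SE 0.11, edgeR FDR = 0.724).

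Whether the diet moved a receptor relative to a relative or partner was tested on the ratio within each mouse, for 6 pairs, with the two-sided exact permutation test. The largest difference was that of Nr1i2 over Nr1i3, 0.27 on the log2 scale (exact permutation p = 0.123, adjusted p = 0.416), followed by Nr1h2 over Nr1h3 at 0.17 (p = 0.139, adjusted p = 0.416). Hnf4a over Ppara (0.12), Nr1h4 over Nr0b2 (−0.11), Nr0b2 over Nr5a2 (0.07) and Nr1i3 over Rxra (−0.06) all had an adjusted p of 0.799 in this exact test. None of the 6 pairs was shown to differ in its response to the diet.

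The receptors also varied less among BIBB-515 mice. The SD of log2 CPM was lower with BIBB-515 than in control mice for 10 of 10 receptors, with medians of 0.26 in control and 0.10 in BIBB-515 mice. Over all tested genes 78.0% had the lower SD with BIBB-515, with medians of 0.19 and 0.13. The coefficient of variation of Rxra was 18.1% in control and 4.80% in BIBB-515 mice, and that of Nr5a2 18.7% and 5.46%. Nr0b2 was nearly as variable with BIBB-515 (22.8%) as without. The spread was not tested.

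Along the transcripts, ratios of diet means were computed for exons with at least 20 reads on average, overlapping versions of an exon being scored once by the longest. Nr1i2, Nr1h2 and Rxra were higher in BIBB-515 mice in every scored exon (9, 10 and 10 exons), although the Rxra ratios were at most 0.16 on the log2 scale. In Ppara the first exons scored were at 0.03 and 0.05, while the last and longest exon, of 5841 bases, was at −0.28. Hnf4a was between −0.16 and 0.01, and the value of −0.16 belonged to its last exon, of 2959 bases, which held most of its reads. Nr1h4 had the widest range, −0.32 to 0.20, over 11 exons. The last exon lay below the first scored exon in Nr1i2, Nr1i3, Nr1h2, Nr0b2, Nr5a2, Hnf4a and Ppara. In Nr1h3, Nr1h4 and Rxra it lay above the first. The ratio went from 0.34 to 0.16 in Nr1h2 and from 0.21 to −0.10 in Nr5a2, so a fall along the transcript was not particular to Ppara. The part of read coverage or RNA quality in these ratios was not tested.

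**Figure D4:**
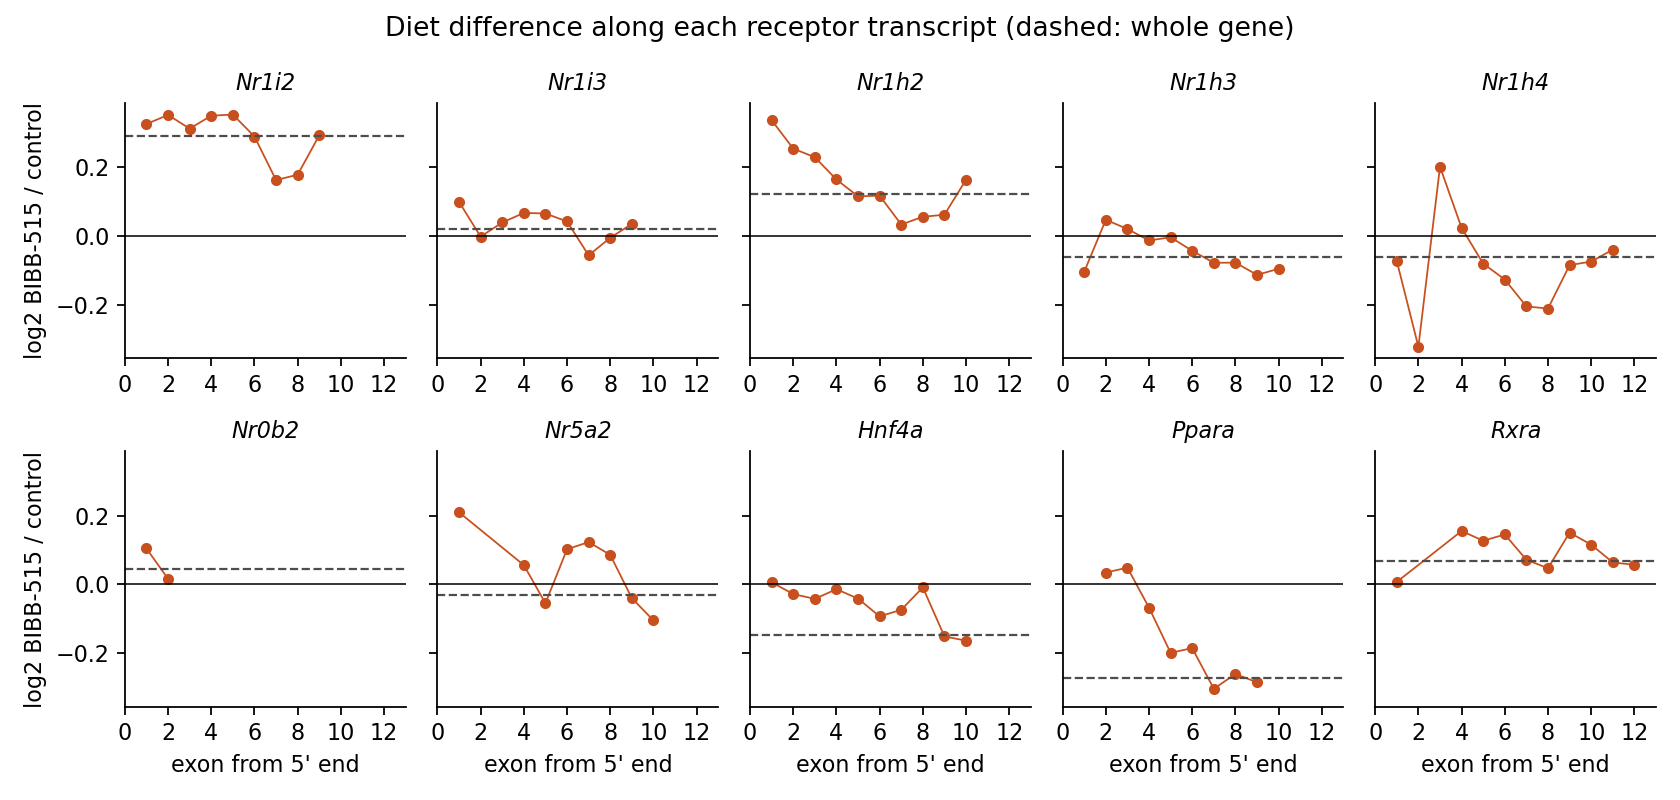
Log2 ratio of BIBB-515 to control mean CPM for each exon of the 10 receptors with at least 20 reads on average, numbered from the 5′ end; the dashed line is the value of the whole gene. All exons of Nr1i2 and Nr1h2 lie above 0, and the ratios of Ppara go from 0.05 near the 5′ end to −0.30 further along.

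Whether mice with more of a receptor transcript also had more of a classic target was examined in 8 pairs, after the mean of each diet was removed, over 12 mice with 100000 permutations within diets. The highest relation was that of Ppara with Cyp4a14 (permutation test, Pearson r = 0.78, p = 0.0137, adjusted p = 0.110, Spearman rho = 0.69, p = 0.0380, adjusted p = 0.304), which did not pass the correction. It was 0.62 without the 2 mice farthest from the median of Ppara, 0.87 among control mice and 0.36 among BIBB-515 mice. The other 7 pairs had r between −0.50 (Nr5a2 with Cyp8b1) and 0.04 (Nr1h4 with Nr0b2), and adjusted p values of at least 0.486. Nr1i2 with Cyp3a11 was at −0.08 (0.24 among control and −0.58 among BIBB-515 mice), and Nr1i3 with Cyp2b10 at −0.44 (−0.39 and −0.90). For both of these pairs a positive relation within diets was not detected, although the target separated the diets.

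**Figure D5:**
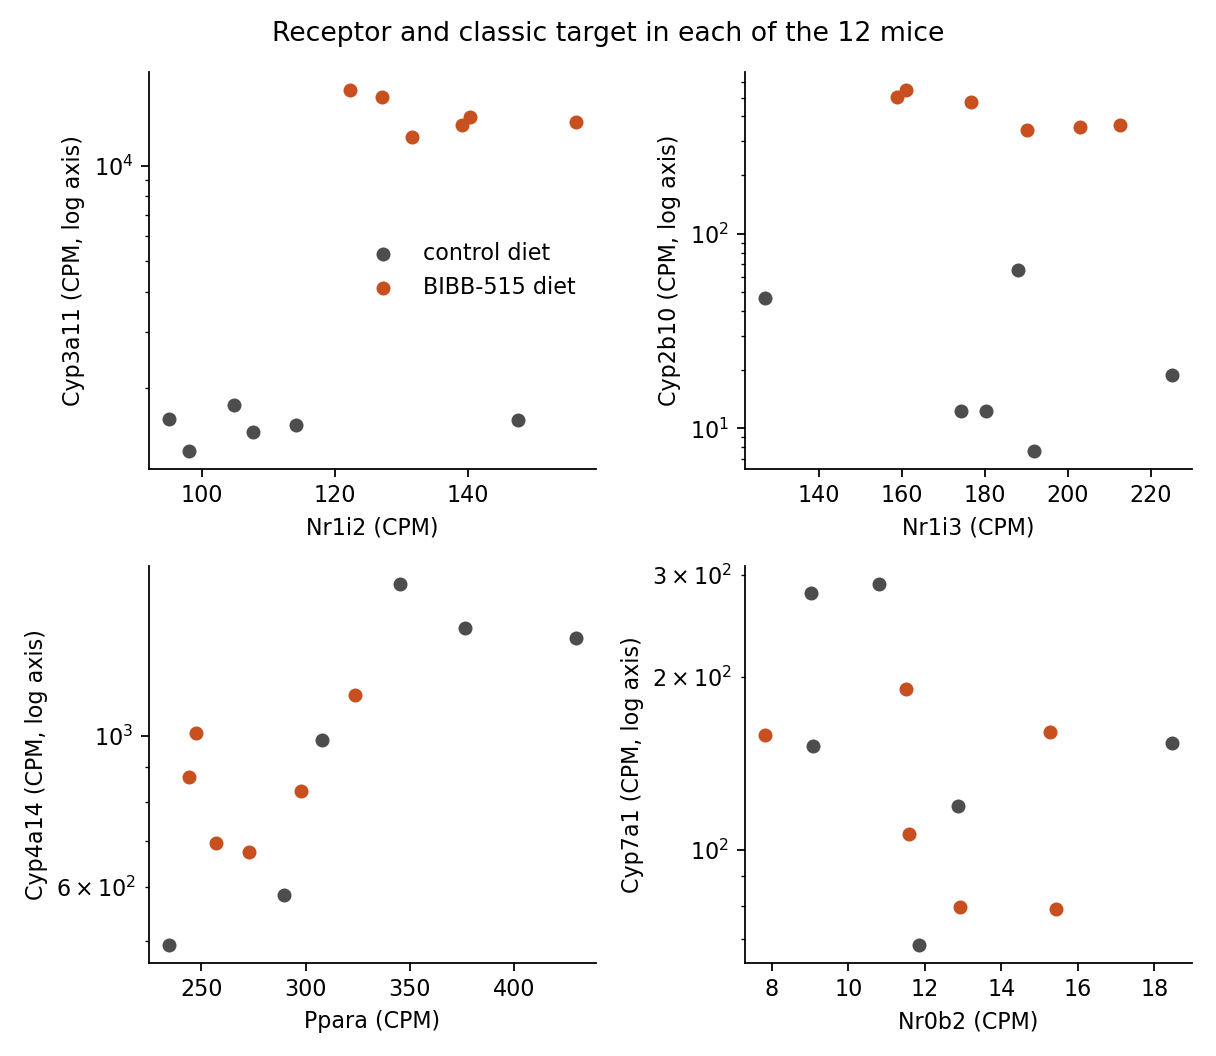
Level of a receptor (x axis, CPM) and of a classic target (y axis, CPM, log axis) in each of the 12 mice, grey control and orange BIBB-515. Cyp3a11 and Cyp2b10 separate the diets while the Nr1i2 and Nr1i3 values overlap, and Ppara with Cyp4a14 is the pair with the highest r (0.78).

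Coregulators, which receptors recruit to open or close chromatin, were measured as a list of 23 genes, of which 3 fell (edgeR, median −0.04) and the other 20 did not pass, a called share of 13.0% beside 13.7% of all tested genes. Ppargc1a, the PGC-1-alpha coactivator of PPAR-alpha and HNF4-alpha in fasting, fell from 24.7 ± 9.29 to 14.3 ± 2.31 CPM (log2 fold change −0.79, SE 0.19, edgeR FDR = 0.0139). The deacetylase gene Sirt1 fell by 0.31 on the log2 scale (edgeR FDR = 0.0236). The count was 1 without BIBB-515 mouse 8.

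Of 39 other nuclear receptor genes, 29 were tested, and 4 (Nr0b1, Rorb, Nr2e1 and Nr2e3) had no read in any mouse. Of these 29, 3 rose and 3 fell (edgeR), which is 20.7% against 13.7% of tested genes, and the median was −0.10. Nr6a1, the orphan receptor GCNF, rose from 13.5 ± 2.85 to 25.9 ± 3.19 CPM (log2 fold change 0.94, SE 0.13, edgeR FDR = 0.000316), with no overlap. Esrra, the estrogen-related receptor of mitochondrial genes, rose by 0.39, and Rara, a retinoic acid receptor, by 0.25 on the log2 scale. Thrb, the main thyroid hormone receptor of liver, fell by 0.40, the circadian receptor Rora by 0.25 and Nr1h5, a second farnesoid-type receptor, by 0.45. The count ranged from 3 to 9 when single mice were left out, and was 3 without control mouse 1 or BIBB-515 mouse 7 or 9.

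Hepatocyte markers were abundant in every mouse, as given above, and markers of other liver cells were read beside the receptors. Among 31 tested markers (7 of Kupffer cells, 6 endothelial, 7 stellate, 6 bile duct, 4 leukocyte and 1 fat cell), edgeR called 2, against 13.7% of all tested genes, and both fell (Lrat and Dcn, of stellate cells). DESeq2 called 3, against 18% of all tested genes, and limma-voom 2. Of the 6 fat cell markers only Lep was at 0 in all mice, while Adipoq, Plin1, Cfd and Retn had reads but too few to be tested. The summed fat cell markers were 6.82 to 11.3 CPM in control and 6.96 to 11.6 CPM in BIBB-515 mice. The summed bile duct markers were 81.9 to 135 CPM in control and 111 to 174 CPM in BIBB-515 mice (two-sided exact permutation p = 0.0325, unadjusted). The summed Kupffer cell markers were 376 to 620 and 387 to 648 CPM. The part of such cells in the receptor values was not tested.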

How the data were processed

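Liver RNA-seq of 12 mice was analysed, and diet and replicate number were taken from each library's labels. For each mouse the authors deposited whole-number read counts per gene and per exon, which the file headers say were made with featureCounts 1.6.3 on mm10, with strand ignored and multi-mapping reads left out. The gene tables also leave out reads on exons of more than 1 gene, whereas the exon tables count a read for every exon it overlaps, of any gene. Where exon rows of 1 gene overlap, the longest was used. The submitters' processing notes also name STAR 2.5.3a. The further tables of primary alignments, in which a read on overlapping genes counts for each, were used as an alternative, and the transcript tables were not used. The labels describe a qPCR preparation, so the preparation of the libraries is not given in the sources used here. Labels and tables give no sequencing batch, and cages are not given.

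A gene entered the test if 2 or more of the 12 libraries held 1 CPM of it (12481 of 24062 genes). After TMM scaling, diet was fitted by edgeR 4.0.16 (R 4.3.3) with its quasi-likelihood test and no covariate. The FDR is that of Benjamini and Hochberg across the whole table, with 0.05 as the threshold, and fold changes are BIBB-515 minus control. The filter follows that described by the study for its human tissues. The log2 CPM used a pseudocount of 0.5. Single genes were also tested by an exact permutation over all labelings of the mice, and correlations with 100000 permutations. On simulated counts for 12365 genes the edgeR fit recovered 22% of genes changed 1.25-fold, 82% changed 1.5-fold and 93.9% changed 2-fold, with 5.16% false among those called. Each size of change was given to 49 or 50 of these genes, whereas 13.7% of tested genes were called in the data. The shares recovered may therefore differ from those in the data, where some smaller changes, such as that of Ppp2r1a, were called. Differences of about 1.25-fold and less can still be missed, and so can some of 1.5-fold.

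The receptors and the gene lists were chosen with earlier results of these data known. The text names all 10 receptors, at most 4 called genes per list by lowest p (6 for other nuclear receptors), 11 classic targets (Cyp2b10, Cyp3a11, Cyp7a1, Cyp8b1, Abcb11, Abca1, Abcg5, Srebf1, Cyp4a14, Pdk4 and Apoc3) whatever their value, and for each receptor the 3 genes most correlated with it. Beyond that rule, the called markers of liver cells and 2 genes marked in the text are named. A few genes that the rule selects are counted but not reported here. The settings varied were the tool (DESeq2 1.42.0 or limma-voom of limma 3.58.1), upper-quartile scaling, the filter (none, or 1 CPM in 6 libraries), the primary tables and each mouse left out in turn. Promoter sequences are from RefSeq for GRCm38.p6, the assembly that mm10 names.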

Additional observations from a re-analysis of the deposited data

Results flagged for a closer look

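Among 42 groups of 6 values tested for a lone extreme, 2 passed the 95% critical value of Dixon's test, and chance alone would give 2.1, about 1 in 20. Nr1i2 in control mouse 2 was at 147.6 CPM, against 114 CPM in the next control mouse, a gap of 0.636 of the group's range. This is the mouse without which Nr1i2 passed the FDR of 0.05. Apoc3 in BIBB-515 mouse 11 was at 2864 CPM, against 2422 CPM in the next BIBB-515 mouse, a gap of 0.657 of the range.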

How the results depend on the processing

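Under DESeq2, upper-quartile scaling, limma-voom, both filters or the primary tables, 76 of 84 recomputed differences kept their direction and side of the threshold. Of 60 counts of called genes, 40 were equal and 55 within 1.5 times, so single genes crossed the threshold in others (CAR and PXR targets numbered 18 in each of the 6 settings). The log2 fold changes of the receptors kept their direction under each of these 6 settings. With the primary tables the order of Hnf4a over Nr1i3 reversed (−0.23 in control, −0.40 in BIBB-515 mice). Both this pair and 5 other neighbour pairs of BIBB-515 mice were then at an adjusted p of 0.0469 in the exact sign-flip test. That value is set by the number of pairs at the smallest p. Over the exon bases that no other gene shares, a setting chosen after seeing the data, the order of Hnf4a over Nr1i3 also reversed (−0.11 and −0.28). With DESeq2 the receptors called numbered 1 (Nr1i2), the FXR and SHP targets 3 and the LXR targets 5. The CAR cytosolic list had 3 with no filter, and the PPAR-alpha list 1 with limma-voom. DESeq2 gave Nr1i2 a log2 fold change of 0.29 at an adjusted p of 0.0356, and the range over these settings was 0.0356 to 0.0717. The causes were not tested.

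Without single mice, the receptors called ranged from 0 to 1, CAR and PXR targets from 17 to 18, CAR cytosolic genes from 2 to 4, FXR and SHP targets from 1 to 3, HNF4-alpha targets from 6 to 6, LRH-1 targets from 3 to 5, LXR targets from 2 to 4, PPAR-alpha targets from 1 to 4, coregulators from 1 to 4 and other receptors from 3 to 9. Over the whole table the genes called went from 1705 with all mice to between 1199 of 12472 (without BIBB-515 mouse 10) and 1865 of 12447 (without control mouse 2). The list counts therefore moved together with the number of calls over all genes. The log2 fold changes ranged from 0.25 to 0.39 for Nr1i2, −0.055 to 0.099 for Nr1i3, 0.09 to 0.15 for Nr1h2, −0.11 to 0.00052 for Nr1h3, −0.12 to −0.01 for Nr1h4, −0.025 to 0.22 for Nr0b2, −0.10 to 0.052 for Nr5a2, −0.22 to −0.09 for Hnf4a, −0.34 to −0.18 for Ppara and −0.0069 to 0.12 for Rxra. Pair differences that changed sign ranged from −0.081 to 0.19 (Nr0b2 over Nr5a2), −0.24 to 0.0083 (Nr1h4 over Nr0b2) and −0.12 to 0.045 (Nr1i3 over Rxra). Level differences that changed sign were in control mice Nr1h4 over Nr1h3 (−0.035 to 0.066), Nr1i2 over Ppara (−0.046 to 0.046) and Nr5a2 over Nr0b2 (−0.11 to 0.16), and in BIBB-515 mice Hnf4a over Nr1i3 (−0.049 to 0.076) and Nr0b2 over Nr5a2 (−0.072 to 0.15).

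No paired analysis was possible because the diets share only 1 replicate number, 6. The mice are taken as separate animals, and what p-values measure is the spread between 6 mice per diet. Effects of proteins, ligands or nuclear entry of the receptors were not measured. A change of about 1.25-fold or somewhat more in a receptor transcript could be missed at this spread. The 95% intervals of Nr1i2, Nr0b2, Hnf4a and Ppara reached beyond 1.25-fold.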

Other observations

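The genes whose levels followed each receptor most closely were found by Pearson r of log2 CPM over 12 mice after the mean of each diet was removed. The values come from a search over all tested genes in libraries that share their depth and spread, so high values are common and are given as a description. Among the genes that followed Ppara were Decr2 (r = 0.95), a peroxisomal dienoyl-CoA reductase, and Cmtm7 (0.94). Nr1i3 was followed by Ppm1k (0.95), a phosphatase of branched-chain amino acid breakdown, Acsf2 (0.95), an acyl-CoA synthetase, and Athl1 (0.94). Nr5a2 was followed by Cldn12 (0.94), Cpsf2 (0.93) and the thyroid hormone receptor gene Thrb (0.93). For Cpsf2 the r was 0.98 among control mice but 0.21 among BIBB-515 mice.

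The remaining receptors had similar maxima. For Nr1h3 they were Stk16 (0.98), Msrb1 (0.98) and Arl6ip1 (0.98), and for Rxra Fam134a (0.98), Aph1a (0.97) and Ppp6r1 (0.96). Nr1h4 had Bcl2l12 (0.95), Herc6 (0.95) and Hmgb1 (0.94), and Hnf4a had Slc8b1 (0.93), Adck4 (0.92) and Rnf113a2 (0.91). Nr1h2 had Fbxl19 (0.92), Abhd4 (0.89) and Pes1 (0.89), Nr0b2 had Laptm4a (0.91), Scn8a (0.90) and Hyls1 (0.86), and Nr1i2 had Vcam1 (0.89), Bag5 (0.89) and St3gal5 (0.88), the lowest maximum of the 10. Between the receptors themselves, Nr1i3 with Nr1h3 had the highest r, 0.88, followed by Nr1i3 with Ppara at 0.77.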
